A study of Mus musculus with 6 samples.

Results

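Sialyltransferases are Golgi enzymes that cap the sugar chains of glycoproteins and glycolipids with sialic acid, and the core 2 enzyme encoded by Gcnt1 opens the branch of O-linked chains on which selectin ligands are built. The genes described here are St3gal1, St3gal2, St3gal3, St3gal4, St3gal6, St6gal1, St8sia1, St8sia4, St8sia6 and Gcnt1, chosen by name, with earlier results of these data known. All 10 have a row among the 18446 genes of the deposited table, and 9 of them passed the filter used for testing, which asked for an average of at least 1 FPKM across the 6 libraries and kept 10347 genes. Gcnt1 did not pass it. FPKM counts fragments relative to transcript length and to the mapped total, so that levels can be compared between genes.

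The RNA came from naive CD4+ T cells of C57BL/6 mice aged 6 to 8 weeks, sorted from spleen and lymph nodes by surface markers of naive cells, low CD44 among them. The design crossed 2 genotypes, Zak-/- and wild type (WT), with 0, 6 and 48 h of anti-CD3 and anti-CD28 stimulation, which triggers the antigen receptor together with its costimulatory partner, and gave 1 library per group. Map3k20 is the gene of Zak, a stress-responsive kinase upstream of MAP kinases, and the labels speak both of a Zak-/- genotype and of a deficiency limited to T cells, naming no Cre or promoter. Map3k20 itself stood at 0.10 FPKM in the library labelled Zak-KO and 0.17 in WT at 0 h, at 0.10 in Zak-KO and 0.19 in WT at 6 h, and at 1.61 in Zak-KO and 1.35 in WT at 48 h. A gene-level value does not show whether an exon is missing. At 0 and 6 h the level was far below 1 FPKM in both genotypes, and at 48 h it did not separate them. The Zak-/- libraries are therefore called "labelled Zak-KO", and each direction between genotypes rests on that label.

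The libraries summed to between 496045 and 546113 FPKM, with 1777 to 2793 genes at 0 in each. The read depth is unknown, so no counting interval is given. The 7 T cell markers summed to between 1767 and 2141 FPKM per library, against 3.54 to 8.22 for 6 B cell markers, 4.51 to 8.06 for 6 myeloid markers, 0.61 to 3.01 for 5 dendritic cell markers, 1.41 to 3.56 for 4 NK cell markers and 8.88 to 12.8 for 2 CD8 markers. Markers of regulatory T cells were present, with 3 genes that summed to between 70.1 and 95.99 FPKM. Among them Foxp3 stood at 15.99 FPKM in the library labelled Zak-KO and 14.1 in WT at 0 h. Its level was 44.7 in Zak-KO and 40.3 in WT at 6 h, and 7.65 in Zak-KO and 5.90 in WT at 48 h. Of the B cell list 2 genes, of the NK, myeloid and dendritic cell lists 3 each, stayed below 1 FPKM in every library. The 5 naive markers used, among them Il7r and Ccr7, summed to 2787 FPKM in the library labelled Zak-KO and 2773 in WT at 0 h, and to 553 in Zak-KO and 547 in WT at 48 h.

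Sialic acid can be joined to the chain in several ways, and each family makes its own kind of link. ST3Gal enzymes add it in alpha2-3 linkage to galactose, ST6Gal1 in alpha2-6 linkage to galactose at the ends of N-linked chains, ST6GalNAc enzymes in alpha2-6 linkage to N-acetylgalactosamine, and ST8Sia enzymes in alpha2-8 linkage to another sialic acid. On T cells these caps decide which lectins bind: galectins read uncapped galactose, Siglecs read sialic acid, and selectins read alpha2-3 sialylated and fucosylated chains.

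With no second library in any group, no difference between 2 single libraries has a replicate check, and such differences were counted at 2-fold or more on the log2(FPKM + 1) scale. The change with time was also tested over both genotypes with limma, a linear model fitted to all 10347 genes, with the genotype as a block and Benjamini-Hochberg adjusted p-values below 0.05 called. Its error is the disagreement of the 2 genotypes on the time course, with 2 residual degrees of freedom, and not a spread between cultures. Folds on this scale understate the change of genes with low levels.

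After 48 h of stimulation the sialyltransferase genes had parted into a group that fell and a group that rose. St8sia6, St8sia1, St8sia4, St6gal1 and St3gal6 fell, and St3gal4, St3gal1, St3gal2 and St3gal3 rose, in both genotypes. The fit called 4 of the 9 tested genes higher and 5 lower, while it called 39.0% of all genes tested higher and 35.2% lower, so that a call by itself says little in a comparison where most genes moved. By the 2-fold rule, 2 of 9 were higher and 4 lower in the libraries labelled Zak-KO, where 18.4% and 12.0% of all genes were, and 1 was higher and 4 were lower in WT, where 17.8% and 12.3% of all genes were. In RNA from a whole culture, fewer cells of a type and less RNA per cell cannot be told apart.

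At 6 h against 0 h the fit called 1 of the 9 members higher and 4 lower, where it called 26.3% of all genes higher and 30.4% lower. At 48 h against 6 h it called 3 higher and 4 lower, where it called 29.8% and 30.0% of all genes. By the 2-fold rule, 0 members were higher and 2 lower at 6 h against 0 h in the libraries labelled Zak-KO, where 9.08% and 1.52% of all genes were, and 0 were higher and 1 lower in WT, where 8.93% and 1.39% were. At 48 h against 6 h, 0 were higher and 1 lower under each label, where 10.8% and 6.55% of all genes were in Zak-KO and 9.32% and 6.14% in WT. The member past 2-fold in each of these was St8sia6, joined by St8sia4 at 6 h in the library labelled Zak-KO.

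**Figure D1:**
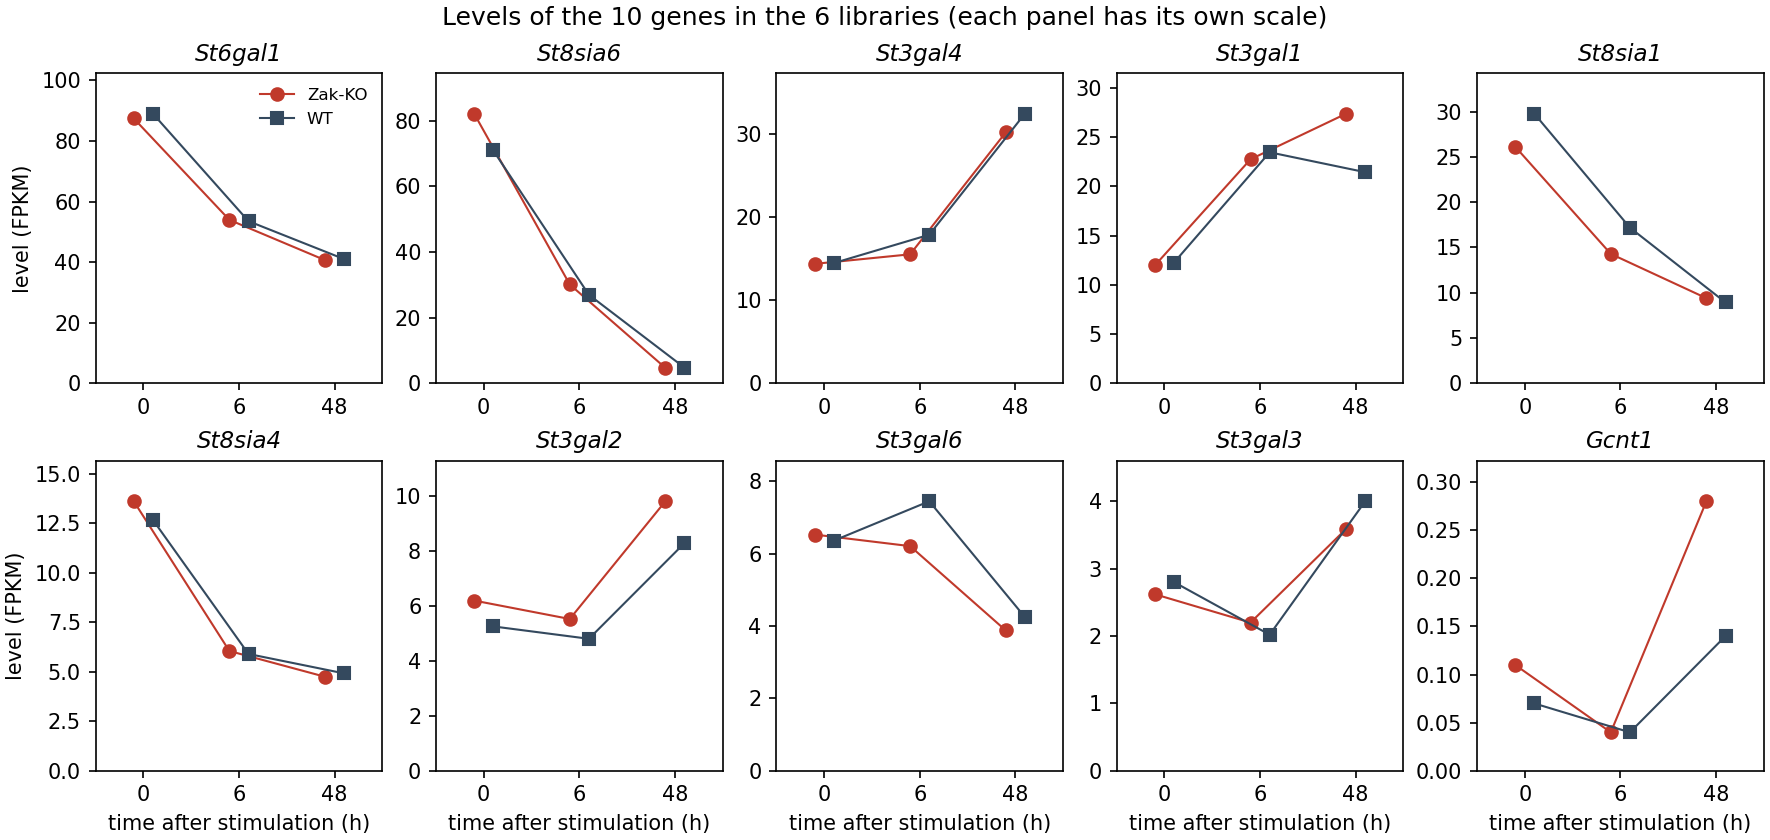
Level of each of the 10 genes in FPKM (vertical axis, one scale per panel, starting at 0) at 0, 6 and 48 h (horizontal axis), with circles for the libraries labelled Zak-KO and squares for WT, 1 library per point. St8sia6 ends at 4.68 and 4.74 FPKM, St3gal4 at 30.2 and 32.5 FPKM, and Gcnt1 never exceeds 0.28 FPKM.

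Among the members, St8sia6 fell furthest. St8sia6 encodes an enzyme that adds a second sialic acid, chiefly on O-linked chains, and its products are ligands of mouse Siglec-E (gene at chr2:13651018-13794734, RefSeq, GRCm38.p6, as for all gene positions here). It stood at 82.1 FPKM in the library labelled Zak-KO and 70.9 in WT at 0 h, at 30.1 in Zak-KO and 26.9 in WT at 6 h, and at 4.68 in Zak-KO and 4.74 in WT at 48 h. The times did not overlap, and the genotypes differed less within each time than the times did from each other. The fall at 48 h against 0 h was 13.5-fold over both genotypes (log2 change -3.76, SE 0.09, limma adjusted p = 1.12e-06). Few genes changed as far: 1.13% of the tested genes did so between the libraries labelled Zak-KO, and 1.58% between the WT libraries. The fall came in both intervals, by 1.39 on the log2 scale between 0 and 6 h (SE 0.09, limma adjusted p = 7.45e-05) and by 2.37 between 6 and 48 h (SE 0.09, limma adjusted p = 8.44e-06).

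St8sia1 encodes GD3 synthase, which turns the ganglioside GM3 into GD3 (chr6:142821541-142989528). Its level was 26.1 FPKM in the library labelled Zak-KO and 29.8 in WT at 0 h, 14.3 in Zak-KO and 17.2 in WT at 6 h, and 9.39 in Zak-KO and 8.92 in WT at 48 h. The level dropped at both steps, by 0.79 on the log2 scale at 6 h against 0 h and by 0.72 at 48 h against 6 h (SE 0.10 each, limma adjusted p = 0.00122 and 0.00153). St8sia4 encodes a polysialyltransferase, which builds long chains of sialic acid (chr1:95587682-95667717). It stood at 13.6 FPKM in the library labelled Zak-KO and 12.7 in WT at 0 h, at 6.05 in Zak-KO and 5.90 in WT at 6 h, and at 4.75 in Zak-KO and 4.92 in WT at 48 h. Most of its fall was already there at 6 h: the log2 change was -1.02 at 6 h and -1.28 at 48 h, each against 0 h (SE 0.09, limma adjusted p = 0.000319 and 4.52e-05). Between 6 and 48 h it was -0.26, short of the threshold (limma adjusted p = 0.0539), and 4 of the alternative settings called it, with adjusted p-values from 0.0376 to 0.04996. The other ST8Sia genes, St8sia2, St8sia3 and St8sia5, did not exceed 0.08 FPKM in any library.

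RefSeq promoter windows of 300 bases (GRCm38.p6, 250 before and 50 after an annotated start) were found for 8 of the 10 genes, 13 windows in all. St3gal1 and St3gal2 had none. The windows of the ST8Sia genes that fell together and of St3gal4, the member with the largest rise, are shown so that their composition can be compared. They lie on the minus strand, at chr2:13793471-13793770 for St8sia6, chr6:142964403-142964702 for St8sia1, chr1:95667545-95667844 for St8sia4 and chr9:35116815-35117114 for St3gal4. Each is written 5′ to 3′, with matches to the GC box GGGCGG or its complement CCGCCC, a motif of Sp and Krüppel-like factors, in capitals.
St8sia6: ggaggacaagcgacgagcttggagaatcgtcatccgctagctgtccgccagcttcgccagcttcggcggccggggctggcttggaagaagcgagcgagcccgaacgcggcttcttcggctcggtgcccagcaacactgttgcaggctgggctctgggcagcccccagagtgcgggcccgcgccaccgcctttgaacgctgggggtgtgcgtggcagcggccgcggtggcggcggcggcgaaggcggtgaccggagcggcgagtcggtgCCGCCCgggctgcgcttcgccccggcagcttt
St8sia1: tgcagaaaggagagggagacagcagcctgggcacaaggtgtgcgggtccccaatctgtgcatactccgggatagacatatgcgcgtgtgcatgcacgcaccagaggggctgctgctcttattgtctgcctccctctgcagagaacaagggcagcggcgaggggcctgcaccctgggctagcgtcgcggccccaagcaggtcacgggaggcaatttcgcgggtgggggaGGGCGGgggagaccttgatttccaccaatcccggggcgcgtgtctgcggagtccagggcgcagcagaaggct
St8sia4: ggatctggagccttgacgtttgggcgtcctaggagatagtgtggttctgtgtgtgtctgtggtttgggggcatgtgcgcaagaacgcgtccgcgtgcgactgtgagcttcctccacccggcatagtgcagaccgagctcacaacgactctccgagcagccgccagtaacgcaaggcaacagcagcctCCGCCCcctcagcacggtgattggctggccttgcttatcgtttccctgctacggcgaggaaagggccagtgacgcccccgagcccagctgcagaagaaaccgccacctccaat
St3gal4: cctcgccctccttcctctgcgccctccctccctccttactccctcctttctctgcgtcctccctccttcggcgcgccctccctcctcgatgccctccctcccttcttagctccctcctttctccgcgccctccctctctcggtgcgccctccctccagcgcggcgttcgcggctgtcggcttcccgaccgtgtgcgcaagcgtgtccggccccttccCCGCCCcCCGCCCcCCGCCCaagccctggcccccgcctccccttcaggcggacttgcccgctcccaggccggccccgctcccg
All 4 windows were GC-rich, with 72.0% G and C for St8sia6, 64.7% for St8sia1, 61.3% for St8sia4 and 74.0% for St3gal4, against a median of 52.7% over the 32851 windows of all genes. St8sia6 had 1 GC box, St8sia1 1, St8sia4 1 and St3gal4 3. Of the 13 member windows, 7 held at least 1, and 35.7% of all windows did. The genes that fell and the gene that rose thus share the motif, and its presence does not separate them. Searched on both strands with any overlap allowed, the E-box CACGTG, the forkhead motif GTAAACA and the AP-1 motif TGAGTCA were in 0 of the 13 windows, while 7.15%, 3.65% and 5.20% of all windows hold them. The TATA box TATAAA was in 1 window, of Gcnt1, and in 13.6% of all windows. A match is a description of the letters and not a binding site, and these windows cover only part of each control region. The 4 windows shown also lie at unlike starts. The start used for St3gal4 is the outer end of its gene, while those for St8sia6, St8sia1 and St8sia4 lie inside the gene.

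St6gal1 was the most abundant of the 10 genes at every time. Its enzyme makes the alpha2-6 sialylated N-linked chains that CD22 binds and that hinder galectin-1 (chr16:23224729-23360350). It stood at 87.4 FPKM in the library labelled Zak-KO and 89.0 in WT at 0 h, at 53.9 in Zak-KO and 53.5 in WT at 6 h, and at 40.7 in Zak-KO and 41.0 in WT at 48 h. Each time lay apart from the next, and the genotypes were nearly equal within each. The fall was 2.13-fold at 48 h against 0 h (log2 change -1.09, SE 0.07, limma adjusted p = 2.18e-05), and the step from 0 to 6 h was the longer one, with log2 changes of -0.71 at 6 h against 0 h and -0.39 at 48 h against 6 h (limma adjusted p = 0.000361 and 0.00326). St6gal1 is also high in B cells, whose 6 markers summed to 7.40 FPKM in the library labelled Zak-KO and 3.54 in WT at 0 h, and to 8.22 in Zak-KO and 5.67 in WT at 48 h. These sums were higher at 48 h than at 0 h under each label, and their part in the level of St6gal1 was not tested. St6gal2, its only relative, did not exceed 0.01 FPKM.

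Of the 5 ST3Gal genes in the set, St3gal4 and St3gal1 had the largest rises at 48 h against 0 h, and they rose at different times. St3gal1 encodes the enzyme that caps the core 1 O-linked chain, the same chain on which the core 2 enzyme acts (chr15:67102875-67176946). Its level was 11.97 FPKM in the library labelled Zak-KO and 12.3 in WT at 0 h, 22.7 in Zak-KO and 23.5 in WT at 6 h, and 27.4 in Zak-KO and 21.4 in WT at 48 h. Both stimulated times lay above 0 h in both genotypes, but did not keep apart from each other. The rise at 6 h against 0 h was 1.84-fold (log2 change 0.88, SE 0.12, limma adjusted p = 0.00131). Between 6 and 48 h the log2 change was 0.07 (SE 0.12, limma adjusted p = 0.645), made of 0.26 in the libraries labelled Zak-KO and -0.12 in WT.

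St3gal4 encodes an enzyme that sialylates N-acetyllactosamine ends, a step in selectin ligand synthesis (chr9:35046576-35116864). It stood at 14.4 FPKM in the library labelled Zak-KO and 14.5 in WT at 0 h, at 15.5 in Zak-KO and 17.9 in WT at 6 h, and at 30.2 in Zak-KO and 32.5 in WT at 48 h. Most of its rise came after 6 h: the log2 change was 0.20 at 6 h against 0 h (SE 0.08, limma adjusted p = 0.0892) and 0.87 at 48 h against 6 h (SE 0.08, limma adjusted p = 0.0003). St3gal2 encodes an enzyme that acts on the ends of O-linked chains and gangliosides (chr8:110919743-110974058). Its level was 6.19 FPKM in the library labelled Zak-KO and 5.25 in WT at 0 h, 5.52 in Zak-KO and 4.8 in WT at 6 h, and 9.80 in Zak-KO and 8.28 in WT at 48 h. Its 48 h values were the highest in both genotypes, with a log2 change of 0.70 against 6 h (SE 0.09, limma adjusted p = 0.00107).

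St3gal3, another enzyme for galactose ends (chr4:117932152-118134972), was the lowest of the 9 tested genes at every time, between 2.02 and 4.0 FPKM. Its log2 change was 0.62 at 48 h against 6 h (SE 0.12, limma adjusted p = 0.00478) and 0.37 at 48 h against 0 h (limma adjusted p = 0.0284). The second of these calls was lost without a filter, under common-sum or median-ratio scaling, and without the 0 h library of either genotype or the WT 48 h library, with adjusted p-values from 0.0553 to 0.175. St3gal6 encodes an enzyme that works on the same chain ends as St3gal4 and shares its part in selectin ligands (chr16:58469742-58524260). It stood apart from the other ST3Gal members in direction, with 6.53 FPKM in the library labelled Zak-KO and 6.36 in WT at 0 h, 6.21 in Zak-KO and 7.45 in WT at 6 h, and 3.88 in Zak-KO and 4.25 in WT at 48 h. The lowest values in both genotypes were those of 48 h, and its log2 change was -0.62 against 6 h (SE 0.11, limma adjusted p = 0.00333) and -0.56 against 0 h (limma adjusted p = 0.00368). Without the 0 h library labelled Zak-KO the change against 0 h was -0.46 and not called (limma adjusted p = 0.0565). In GENCODE M21, 1603 of the 6172 exon bases of St3gal6 are also exon bases of Dcbld2 on the other strand, and no source says whether the libraries kept strand. Dcbld2 was listed at 0.28 FPKM or less in every library. Shorter stretches of St3gal4 (412 bases), St6gal1 (200), St8sia1 (149) and St8sia6 (112) lie opposite noncoding transcripts, and the other members overlap no annotated exon of another gene.

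**Figure D2:**
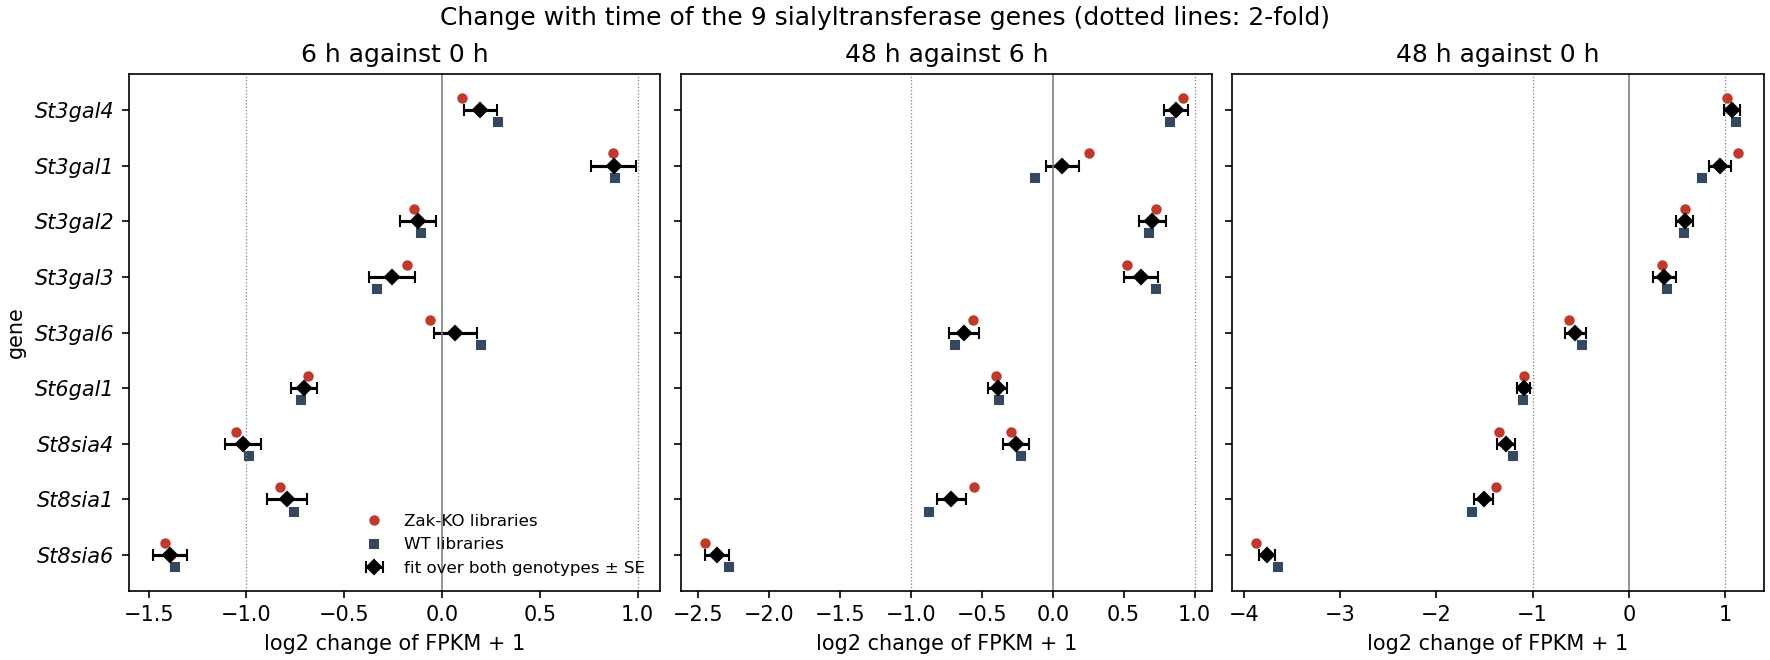
Log2 change of FPKM + 1 (horizontal axis, each panel with its own range) of the 9 tested genes (rows) for 6 h against 0 h, 48 h against 6 h and 48 h against 0 h. Diamonds with bars give the limma estimate over both genotypes ± SE, circles the pair of libraries labelled Zak-KO and squares the pair of WT libraries. St3gal1 moved before 6 h, St3gal2, St3gal3 and St3gal4 after it, and St8sia6 reached -3.76 at 48 h against 0 h.

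Gcnt1 (chr19:17326141-17372844) was close to absent. It was listed at 0.11 FPKM in the library labelled Zak-KO and 0.07 in WT at 0 h, at 0.04 in both at 6 h, and at 0.28 in Zak-KO and 0.14 in WT at 48 h. Every library lay far below the least abundant sialyltransferase of the set, St3gal3. In all, 13318 genes of the table had a higher mean than its 0.11 FPKM. The relatives that can also make core 2 branches were low too, with Gcnt3 at 0.26 FPKM or less and Gcnt4 at 0.01 or less. At these levels no change with time or genotype is read from Gcnt1. The upstream step was expressed: C1galt1, which makes core 1, was between 9.77 and 14.9 FPKM, and its chaperone gene C1galt1c1 between 6.68 and 10.1 FPKM.

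The order of the 10 levels was the same in both genotypes at rest: St6gal1, St8sia6, St8sia1, St3gal4, St8sia4, St3gal1, St3gal6, St3gal2, St3gal3 and Gcnt1. At 48 h St6gal1 still led, followed by St3gal4 and St3gal1. The fourth and the fifth rank could not be told apart, since St3gal2 stood above St8sia1 in the library labelled Zak-KO (9.80 and 9.39 FPKM) and below it in WT (8.28 and 8.92 FPKM). St8sia4 and St8sia6 followed in that order under both labels, but close together, at 4.75 and 4.68 FPKM in the library labelled Zak-KO and 4.92 and 4.74 in WT. St3gal6, St3gal3 and Gcnt1 came last in both.

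Added up by family, the mRNA pool changed its makeup. All 20 mouse sialyltransferase genes have a row, and they summed to 258 FPKM in the library labelled Zak-KO and 252 in WT at 0 h, to 191 in each at 6 h, and to 154 in Zak-KO and 150 in WT at 48 h. The 6 ST8Sia genes made up 47.2% of that sum in the library labelled Zak-KO and 44.9% in WT at 0 h, 26.4% in Zak-KO and 26.2% in WT at 6 h, and 12.2% in Zak-KO and 12.4% in WT at 48 h. St8sia6 alone held 31.8% in Zak-KO and 28.1% in WT at 0 h, and 3.03% in Zak-KO and 3.16% in WT at 48 h. The 6 ST3Gal genes went the other way, with 16.4% in Zak-KO and 16.5% in WT at 0 h, 27.8% in Zak-KO and 29.6% in WT at 6 h, and 51.2% in Zak-KO and 48.7% in WT at 48 h. Their share grew more than their sum, because the total fell. The ST3Gal sum was 42.3 FPKM in Zak-KO and 41.7 in WT at 0 h, and 79.1 and 73.0 at 48 h. The share of the ST6Gal pair, which is St6gal1, lay between 26.3% and 35.3% throughout. The 9 members held 97.1% of the sum in the library labelled Zak-KO and 96.5% in WT at 0 h. At 6 h they held 81.8% in Zak-KO and 83.4% in WT. Between these times the sum of the members fell from 250.93 to 156.55 FPKM in Zak-KO and from 243.46 to 159.14 in WT. The ST6GalNAc genes, all outside the set, rose from 6.83 to 33.8 FPKM in Zak-KO and from 8.3 to 30.91 in WT. These shares are independent of how a library is scaled, and they describe mRNA, not enzyme activity or sialic acid on the surface.

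**Figure D3:**
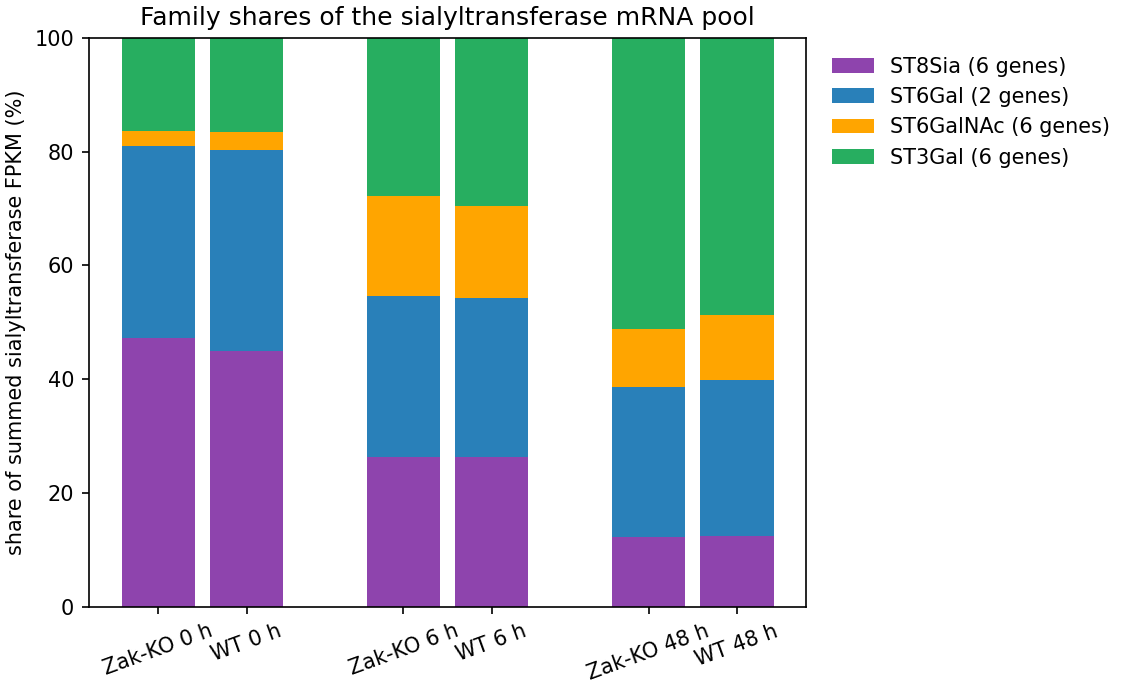
Share of the summed FPKM of all 20 sialyltransferase genes (vertical axis, percent) held by each family in each library (horizontal axis, Zak-KO beside WT at each time). The ST8Sia share is 47.2% and 44.9% at 0 h and 12.2% and 12.4% at 48 h, while the ST3Gal share is 51.2% and 48.7% at 48 h.

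Of the 11 sialyltransferases outside the set, 4 passed the filter, and at 48 h against 0 h 3 of these were called higher and 1 lower, where 39.0% and 35.2% of all genes were. St6galnac4, whose enzyme makes disialylated core 1 chains from chains already capped by ST3Gal enzymes, had the largest change of the sialyltransferases tested at 6 h. It stood at 2.73 FPKM in the library labelled Zak-KO and 2.91 in WT at 0 h, at 28.2 in Zak-KO and 25.1 in WT at 6 h, and at 11.3 in Zak-KO and 12.9 in WT at 48 h. It peaked at 6 h in both genotypes, 7.23-fold above 0 h (log2 change 2.85, SE 0.11, limma adjusted p = 1.23e-05), and was still 3.42-fold above 0 h at 48 h. St6galnac6, which acts on gangliosides, was 2.76-fold higher at 48 h, and St3gal5, which makes GM3, was 2.77-fold higher (limma adjusted p = 0.000112 and 0.000356). St6galnac3 was 2.95-fold lower, at 0.78 FPKM in the library labelled Zak-KO and 0.57 in WT at 48 h against 3.3 in Zak-KO and 4.65 in WT at 0 h (limma adjusted p = 0.000363).

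The genes that supply and recycle sialic acid did not move as one. Of 8 tested, 3 were called higher and 4 lower at 48 h against 0 h, where 39.0% and 35.2% of all genes were, with a median log2 change of -0.38, against 0.03 over all genes tested. Nans, the sialic acid synthase, reached 61.6 FPKM in the library labelled Zak-KO and 64.0 in WT at 48 h, against 20.8 in Zak-KO and 21.96 in WT at 0 h (2.85-fold, limma adjusted p = 1.12e-05). Nanp, the phosphatase after it, was 1.60-fold higher, and Slc35a1, which carries CMP-sialic acid into the Golgi, 1.43-fold higher (limma adjusted p = 0.004 and 0.00137). Cmas, which activates sialic acid to CMP-sialic acid and was picked after its values were seen, was lower, at 26.6 FPKM in the library labelled Zak-KO and 25.6 in WT at 48 h against 51.2 in Zak-KO and 54.4 in WT at 0 h (1.98-fold, limma adjusted p = 8.42e-05). Cmah, which converts sialic acid to its glycolyl form in mice, was 2.14-fold lower, the lysosomal exporter gene Slc17a5 2.402-fold lower and the kinase gene Nagk 2.22-fold lower. Of the sialidase genes Neu1, the lysosomal enzyme, was 2.11-fold lower and Neu3, which acts on gangliosides, 1.69-fold higher (limma adjusted p = 4.40e-05 and 0.00224).

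O-linked chains are begun by GALNT enzymes, and of the 11 tested genes for their start and cores 8 were called lower and 1 higher at 48 h, where 35.2% of all genes were called lower and 39.0% higher (median log2 change -0.56, against 0.03 over all genes tested). Galnt6 fell to 25.5 FPKM in the library labelled Zak-KO and 25.6 in WT at 48 h, against 102.1 in Zak-KO and 87.8 in WT at 0 h (3.60-fold, limma adjusted p = 7.74e-06). Galnt4 was 2.77-fold and Galnt10 2.13-fold lower. Galnt3 was listed at 0 in both 0 h libraries, and at 1.43 FPKM in the library labelled Zak-KO and 3.47 in WT at 48 h.

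Among the genes for selectin ligand assembly 6 of 10 tested were called higher and 3 lower at 48 h (median log2 change 0.49), where 39.0% and 35.2% of all genes were called and their median was 0.03. Chst2, a sulfotransferase for N-acetylglucosamine, stood at 0.30 FPKM in the library labelled Zak-KO and 0.32 in WT at 0 h, at 24.1 in Zak-KO and 21.2 in WT at 6 h, and at 48.7 in Zak-KO and 45.5 in WT at 48 h (36.7-fold at 48 h against 0 h, limma adjusted p = 8.00e-07). Fut7, the fucosyltransferase that completes sialyl Lewis x, was at 0.14 FPKM or less at 0 and 6 h and at 2.85 FPKM in the library labelled Zak-KO and 4.24 in WT at 48 h (limma adjusted p = 0.000106). Tpst1, a tyrosine sulfotransferase, was 5.31-fold higher, while B4galt1, which adds the galactose that sialic acid caps, was 2.36-fold lower. Of the ganglioside genes 3 of 3 tested were called lower at 48 h (median log2 change -1.28), as were 35.2% of all genes, so the count itself says little. Ugcg, the first enzyme of the pathway, dropped to 45.9 FPKM in the library labelled Zak-KO and 46.9 in WT at 48 h, against 182.8 in Zak-KO and 185.2 in WT at 0 h (3.90-fold, limma adjusted p = 4.67e-06), B3galt4 was 2.43-fold lower, and B4galnt1 was 1.82-fold lower at 48 h after a 1.58-fold rise at 6 h.

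Many of these changes were present at 6 h. Of the supply genes Nans was already 1.17-fold higher and Cmah 1.94-fold lower at 6 h against 0 h, with Nagk 1.45-fold and Slc17a5 1.41-fold lower (limma adjusted p = 0.0429, 0.000142, 0.0313 and 0.0095). St6galnac6 was 2.57-fold higher and St6galnac3 1.54-fold lower, and Neu1 was 1.31-fold lower. Of the O-linked list 8 of 11 genes were called lower and 1 higher at 6 h, where 30.4% of all genes were called lower and 26.3% higher; the largest falls were those of Galnt6 (1.87-fold lower), Galnt4 (1.80-fold) and Galnt7 (1.798-fold). Chst2 was 18.02-fold, Tpst1 4.02-fold and B4galt5, a galactosyltransferase gene, 1.70-fold higher, and B4galt1 1.72-fold lower (limma adjusted p = 3.56e-06, 4.40e-05, 0.00211 and 0.000335). Ugcg was 1.87-fold and B3galt4 1.40-fold lower. Other rises named for 48 h were not called at 6 h. Among them were Nanp, Slc35a1, St3gal5 and Fut7 (limma adjusted p = 0.205, 0.0875, 0.202 and 0.978). Neu3 had a log2 change of -0.32 at 6 h, also not called (limma adjusted p = 0.0789).

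**Figure D4:**
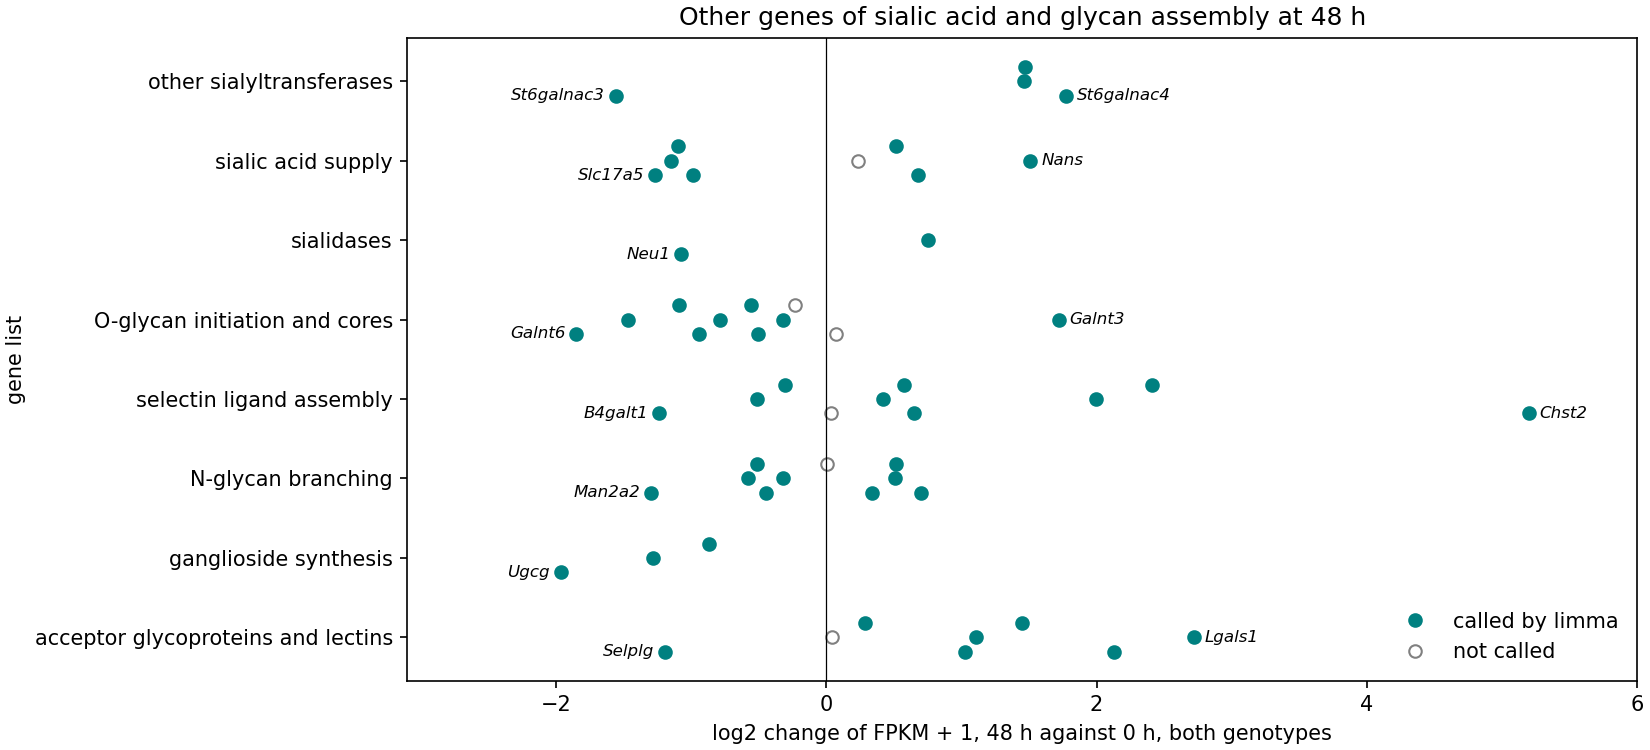
Log2 change of FPKM + 1 at 48 h against 0 h over both genotypes (horizontal axis) for the genes of 8 lists (rows) that passed the filter, 1 point per gene, with points spread slightly up and down for clarity. Filled points were called by limma at an adjusted p below 0.05, open points were not, and the outermost called gene at each end is named where it changed by 2-fold or more, with Chst2 at 5.2 and Ugcg at -1.97.

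For the 2 members with the largest rise and the 2 with the largest fall, the nearest profiles were sought among 8153 other genes of mean 5 FPKM or more, by the root mean square distance of log2 values over the 6 libraries. St8sia6 had the least company, with 5 genes within a distance of 0.2. The distance is not scaled to the size of a change, so this count in part restates how far St8sia6 fell. The nearest were Cyp2d22, a cytochrome P450 gene (0.16), Gramd3 (0.18) and Arl5c, an ARF-like GTPase gene (0.18). St8sia1 had 369 genes that near, led by Aldh6a1, a mitochondrial aldehyde dehydrogenase gene (0.04), Lpar6, a lysophosphatidic acid receptor gene (0.05), and Atp1b3, a subunit gene of the sodium pump (0.05). St3gal4 had 422, led by Vhl, Vdac3 and Arl3 (0.04 to 0.05), and St3gal1 had 373, led by Mrpl19, Rpl7l1 and Creg1 (0.04 to 0.07).

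The genotypes differed little in these genes. No member was past 2-fold between the libraries labelled Zak-KO and WT at 0, 6 or 48 h. Among all genes tested 0.222% were higher and 0.0483% lower by this rule at 0 h, 0.116% and 0.126% at 6 h, and 1.8% and 0.435% at 48 h. The furthest members were St8sia6 at 0 h (1.16-fold higher in the library labelled Zak-KO), St8sia1 at 6 h (1.19-fold lower) and St3gal1 at 48 h (1.26-fold higher, 27.4 FPKM in the library labelled Zak-KO and 21.4 in WT). At 48 h 8.18% of all tested genes differed at least as far as St3gal1. Over all genes the median size of the difference was 1.06-fold for 0 h, 1.10-fold for 6 h and again 1.06-fold for 48 h. At 48 h several marker sums of other cells were also higher in the library labelled Zak-KO. They were 8.22 FPKM in Zak-KO and 5.67 in WT for B cells, and 3.01 in Zak-KO and 0.61 in WT for dendritic cells. Myeloid markers summed to 5.78 in Zak-KO and 4.51 in WT. The CD8 sum was 12.8 in Zak-KO and 8.88 in WT. Of its 2 genes Cd8b1 was higher in Zak-KO (12.04, against 8.11 in WT) and Cd8a was not (0.74, against 0.77 in WT). NK markers were nearly level, at 2.14 in Zak-KO and 2.07 in WT. The regulatory T cell sum was lower in Zak-KO, at 70.7 against 77.5 in WT. Of its genes only Ctla4 was lower in Zak-KO (61.2, against 70.4 in WT). Foxp3 (7.65, against 5.90 in WT) and Ikzf2 (1.78, against 1.18 in WT) were higher. The part of such cells in the difference of St3gal1 was not tested. The 48 h libraries also differed as wholes, with 1777 genes at 0 in Zak-KO and 2793 in WT. Their median-ratio scaling factors were 1.09 in Zak-KO and 0.97 in WT. The upper-quartile factors went the other way, at 0.96 and 1.04, and the common-sum factors were 1.05 and 1.04. The part of these differences between libraries was not tested either.

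Taken over the 3 times with time as a block, limma called 0 of the 9 members, and 0.0193% of all genes higher and 0.00966% lower, and 1 member had an unadjusted p below 0.05, as 4.88% of all genes did. That member was St3gal2, higher in the library labelled Zak-KO at 3 of 3 times, with 6.19 FPKM in Zak-KO and 5.25 in WT at 0 h and 9.80 in Zak-KO and 8.28 in WT at 48 h (log2 difference 0.20, SE 0.08, limma adjusted p = 0.833). The other log2 differences ranged from -0.12 for St8sia1 to 0.12 for St8sia6, with SEs of 0.05 to 0.10. With 1 library per group, differences of this size cannot be told apart from those between any pair of cultures.

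**Figure D5:**
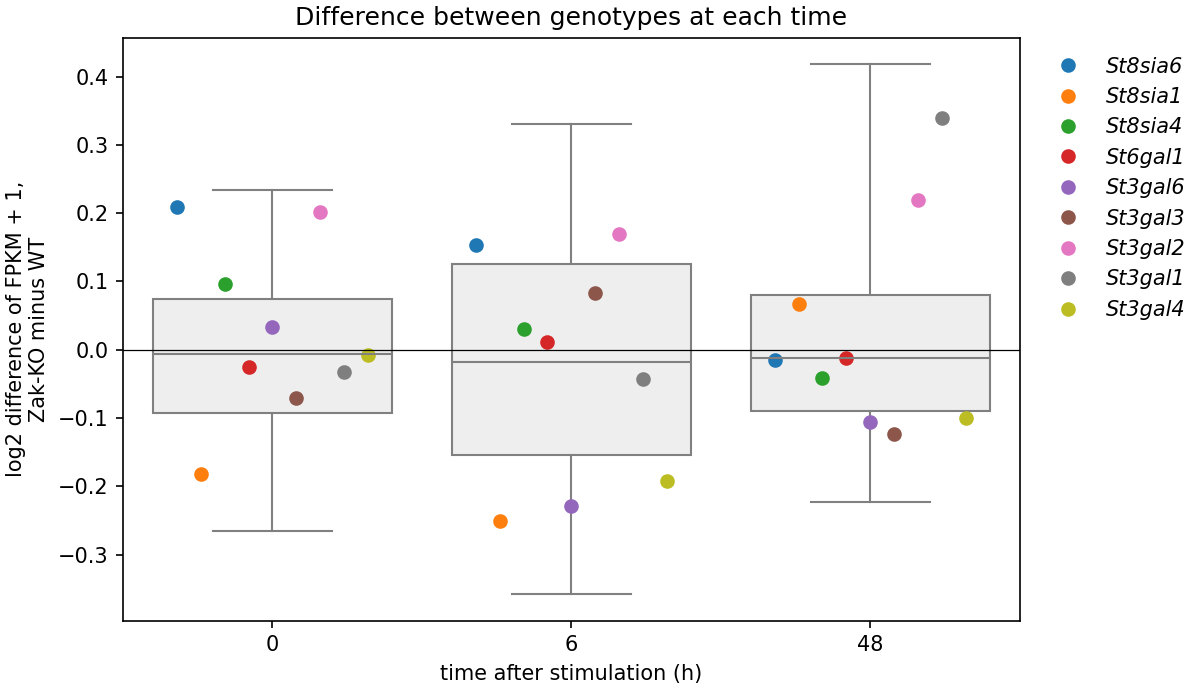
Log2 difference of FPKM + 1, Zak-KO minus WT (vertical axis), at 0, 6 and 48 h (horizontal axis). Points are the 9 tested members, and grey boxes give the median and quartiles of all 10347 tested genes with whiskers from the 5th to the 95th percentile. All members lie within the whiskers at each time, St3gal1 at 48 h being the highest with 0.34.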

How the data were processed

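RNA from 6 libraries, 1 for each of 2 genotypes and 3 times, was sequenced on an Illumina HiSeq, per the labels' protocols. The authors deposited FPKM values, 1 column per library with none pooled. Bowtie and RSEM with mm10 are named, per the submitters' processing notes, without versions. Symbols came from RefSeq on GRCm38.p6, with 18326 of 18446 gene identifiers matched and 120 not.

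Values were analysed as log2(FPKM + 1) without rescaling. Genes that averaged at least 1 FPKM entered limma 3.58.1 (R 4.3.3, eBayes with trend), with time and genotype as terms and Benjamini-Hochberg adjustment over all of them. The fit was tested on simulated data. Alternatives changed the pseudocount, filter, scaling, variance trend, block, fold rule or set of libraries, 1 at a time. Named are the members, up to 3 genes per list and direction with the largest called change at 48 h, the 3 nearest profiles of 4 members, and Map3k20. Foxp3, Ikzf2, Ctla4, Cd8a, Cd8b1, Dcbld2, Cmas, C1galt1, C1galt1c1 and genes named as near 0 were picked after their values were seen. A gene shared by the naive marker and acceptor lists was left out of both and is not reported here. The members, lists and rules were chosen with earlier results of these data known. Python 3.11.15, numpy 2.4.6, pandas 2.3.3 and matplotlib 3.10.9 were used.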

Additional observations from a re-analysis of the deposited data

Results flagged for a closer look

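In 2 cases a member moved one way with time in the libraries labelled Zak-KO and the other way in WT. St3gal1 had a log2 change of 0.26 in the libraries labelled Zak-KO and -0.12 in WT at 48 h against 6 h, a difference of 0.38. St3gal6 had a log2 change of -0.06 in the libraries labelled Zak-KO and 0.20 in WT at 6 h against 0 h, a difference of -0.26. Neither difference was tested, since each rests on 4 single libraries, and over all tested genes the median size of this difference was 0.17 for 48 h against 6 h and 0.16 for 6 h against 0 h.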

How the results depend on the processing

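The numbers of members that limma called higher and lower stayed within 1.5 times under all alternatives run, and leaving out 1 library at a time gave 1 higher and 4 lower at 6 h against 0 h, 3 to 4 higher and 4 to 5 lower at 48 h against 0 h, 3 and 4 at 48 h against 6 h, and 0 between genotypes. Counts by the 2-fold rule moved under several settings. At 48 h against 0 h the number higher became 0 under both labels with a pseudocount of 5 FPKM, 0 for Zak-KO with common-sum scaling and 1 for Zak-KO with median-ratio scaling; at 48 h against 6 h it became 1 for Zak-KO with upper-quartile scaling. At 6 h against 0 h the number lower became 2 for WT with a pseudocount of 0.1 FPKM or any of the 3 scalings, and 1 for Zak-KO with a pseudocount of 5 FPKM or median-ratio scaling. Common-sum scaling moved the median log2 change of all genes at 48 h against 0 h to -0.08 from 0.03. Among all genes, the 5866 calls at 6 h against 0 h became 3476 without the 0 h library labelled Zak-KO and 3318 without the WT 0 h library, the range over left-out libraries being 3318 to 6271; at 48 h it was 6124 to 7959 against 0 h and 5428 to 5742 against 6 h. The 3 calls between genotypes became 0 without a filter or without the block, 6 with a mean of 5 FPKM or more, 1 with upper-quartile scaling or without the variance trend, 11 with median-ratio scaling, and 0 to 63 without 1 library, the most without either 48 h library. Among the members' log2 values 13 turned sign, none of them called: with 1 library left out, St3gal1 at 48 h against 6 h ranged from -0.12 to 0.2544 (-0.03 without the 6 h library labelled Zak-KO), St3gal6 at 6 h against 0 h from -0.0318 to 0.1684 (-0.0281 without the WT 6 h and lowest without the WT 0 h library), and, between genotypes, St3gal1 from -0.0372 to 0.1535, St3gal3 from -0.0967 to 0.0068 (both turned without either 48 h library) and St8sia4 from -0.0055 to 0.0635 (turned without either 0 h library). Between genotypes St6gal1 was 0.0168 with common-sum and 0.0257 with upper-quartile scaling, and St8sia4 was -0.019 with median-ratio scaling. The cause was not tested. No pairing by mouse or culture was possible, because the labels give no replicate numbers and each group holds 1 library. The fit matched libraries only through its block, which is genotype or time.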

Other observations

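The genes for trimming and branching of N-linked chains, the chains that St6gal1 caps, went both ways at 48 h against 0 h: of 10 tested, limma called 4 higher and 5 lower, where it called 39.0% and 35.2% of all genes, with a median log2 change of -0.16 against 0.03 over all genes. Mgat2, which starts the second branch, was 1.62-fold higher, Fut8, which adds core fucose, 1.43-fold and Mgat1, which starts the first branch, 1.42-fold (limma adjusted p = 0.000279, 0.0361 and 0.00112). Man2a2, an alpha-mannosidase gene, was 2.46-fold lower, Mgat4a 1.498-fold and Mgat5, which makes the branch preferred by galectin-3, 1.43-fold (limma adjusted p = 4.62e-05, 0.00443 and 0.00396).

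Among 8 genes of galectins and of glycoproteins that carry sialylated chains, 6 were called higher and 1 lower at 48 h, where 39.0% and 35.2% of all genes were called. Lgals1, galectin-1, stood at 130.6 FPKM in the library labelled Zak-KO and 123.7 in WT at 48 h, against 18.1 in Zak-KO and 18.9 in WT at 0 h (6.58-fold, limma adjusted p = 2.47e-05). Cd44 was 4.36-fold and Cd52 2.72-fold higher. Selplg, the scaffold of P-selectin ligand, fell to 121.3 FPKM in the library labelled Zak-KO and 123.5 in WT at 48 h, against 278.4 in Zak-KO and 282.8 in WT at 0 h (limma adjusted p = 1.41e-05).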
